A study of Mus musculus with 8 samples.

Results

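The subject of this account is the transcriptome of wild-type mouse macrophages isolated from the peritoneum after stimulation with thioglycollate broth, a sterile medium that inflames the cavity and fills it with white blood cells. It covers the 4 libraries with the genotype label WT, chosen by that label alone, of 8 libraries in the series. The study as a whole compared these cells with macrophages carrying a knockout of Men1, the gene of menin, and the knockout libraries were not used here. The WT libraries are M_WT_5643, M_WT_6255, M_WT_6258 and F_WT_5638, and values for the 4 libraries are always given in that order. Each title ends in its own number and starts with a letter, M or F, and the labels explain neither. Nothing in them says that the libraries came from separate animals, so the spread given here may be partly technical. All 4 share the label of stimulation with thioglycollate broth. The labels used here do not name the strain, the age, the time from broth to collection or any purification or sorting, and no unelicited WT library is among the 4, so an untreated or unelicited baseline cannot be set beside these values. Every value is a description of these libraries, with no contrast between groups.

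Macrophages of the peritoneal cavity come from separate sources. Large resident cells renew themselves in the cavity and depend on the transcription factor GATA6, and monocytes enter from the blood when the cavity is irritated and then mature into macrophages. Such cells take up dead cells and microbes through scavenger, complement and Fc receptors, digest them in lysosomes, sense microbial products through Toll-like and C-type lectin receptors, and release chemokines, cytokines, proteases and complement. Macrophage colony-stimulating factor, which acts through the receptor encoded by Csf1r, keeps them alive, and the factor PU.1, encoded by Spi1, sets much of their gene programme.

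RNA was measured by sequencing, as read counts per gene and as FPKM, fragments scaled to gene length and library size, which the authors deposited. FPKM is per gene length, so levels of different genes are compared in FPKM only. Spread across the 4 libraries is given as the coefficient of variation (CV, SD over mean) of library-scaled counts (CPM) adjusted with edgeR's TMM factors, and the deposited FPKM scale lay within 0.988 to 1.01 of that scaling. Total counts ran from 19163344 to 21883619 per library, protein-coding genes held 98.2% to 98.3% of counts and mitochondrial genes 1.15% to 1.36%. A count of 0 allows up to 3 counts, or 0.129 to 0.158 CPM, for counting error only. M_WT_6255 and M_WT_6258 were the closest pair, with 1.99% of 9872 expressed genes more than 2-fold apart. M_WT_5643 stood furthest from the others, with 6.08% to 8.14% of genes more than 2-fold apart, and M_WT_5643 and F_WT_5638 were the furthest pair. Several list spreads described below that rest on 1 library are therefore also given without it, while CVs of single genes cover all 4 libraries.

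A gene was called expressed where its FPKM was at least 1 in all 4 libraries. Of 22046 protein-coding rows, 8864 were expressed, which is 40.2% of them. Every count of expressed list members below stands against that share, and the lists were chosen with earlier results of these data known. A further 12169 were below 1 in every library, and 6721 of those had no count at all. Outside protein-coding genes, 531 pseudogene rows, 101 antisense rows and 88 lincRNA rows reached the same level. Between 10810 and 10949 rows reached an FPKM of 1 in a single library, 431 to 489 reached 100, and 25 to 33 reached 1000. The message pool was concentrated in few genes. The 255 rows with the highest levels held 50% of summed FPKM, and the 100 most counted genes held 28.7% ± 2.22 of the counts (SD, n = 4), between 26.7% and 31.8%.

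Lyz2, which encodes the lysozyme of phagocytes, had the highest level of all protein-coding genes. It stood at 15671, 9677, 10806 and 12441 FPKM, a mean of 12149 ± 2608 (SD, n = 4), and M_WT_5643 was highest. Saa3, an acute-phase serum amyloid made by macrophages, was next at 9834, 5330, 4964 and 2314 FPKM, and its CV of 54.9% was among the widest of the abundant genes. The iron store Fth1 followed at 5597 ± 729.7 FPKM. Fibronectin, encoded by Fn1, stood at 4981, 4044, 3432 and 4231 FPKM. Thrombospondin 1, encoded by Thbs1, stood at 4074, 3640, 3229 and 2739 FPKM. Both are secreted matrix proteins with long transcripts, and they also led the raw counts, Fn1 with 4.84% of all counts and Thbs1 with 2.05%.

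The other genes of the 20 highest were of a few kinds. Cd14, the co-receptor for lipopolysaccharide, stood at 4306, 2231, 2027 and 1913 FPKM, with M_WT_5643 well above the other 3. Serpinb2, an inhibitor of plasminogen activators, stood at 2741, 2186, 2235 and 1157 FPKM, lowest in F_WT_5638. Wfdc17 (2034 FPKM) and Slpi encode small secreted proteins with a whey acidic protein domain, the latter an inhibitor of neutrophil proteases. The chemokine gene Pf4 stood at 964, 1672, 3290 and 1572 FPKM, highest in M_WT_6258 and lowest in M_WT_5643. C1qa and C1qb, chains of the first complement component, had means of 1682 and 1652 FPKM, and for both M_WT_6255 and M_WT_6258 lay above the other 2 libraries. The class I genes B2m and H2-D1 had means of 2691 and 1526 FPKM, both lowest in F_WT_5638. The remaining genes were Tmsb4x, which encodes an actin-binding peptide, the translation genes Eef1a1 and Rplp1, and the mitochondrial genes mt-Co1, mt-Nd1 and mt-Cytb, with means from 1439 to 3409 FPKM. Eef1a1, Rplp1, mt-Nd1 and mt-Co1 had CVs under 10%, and 36.5% of all expressed protein-coding genes did. Some of these levels are uncertain because transcripts share sequence with another gene's: 60% of the 50-base stretches of Rplp1, 51.1% of those of mt-Co1, 39.4% of Eef1a1 and 15.4% of Lyz2 also occur elsewhere, and the handling of reads matching several places is not stated in the labels.

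**Figure D1:**
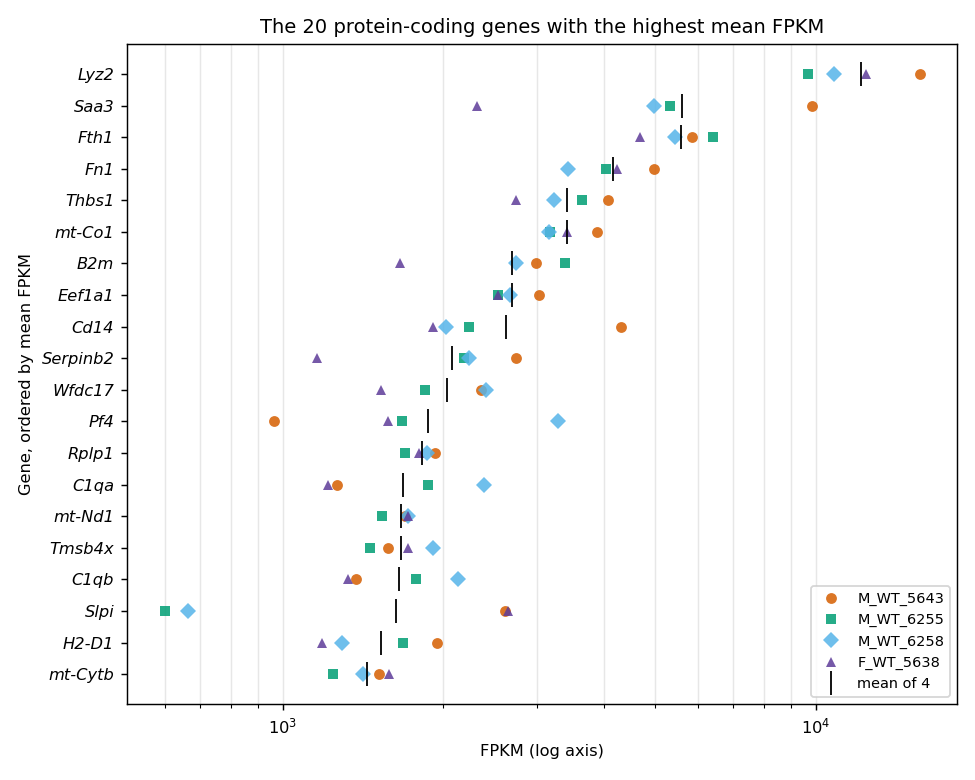
The 20 protein-coding genes with the highest mean FPKM, 1 row per gene, with FPKM on a log axis. Each point is 1 library and the black bar is the mean of 4. Lyz2 lies between 9677 and 15671, and the widest separations are those of Slpi, Saa3 and Pf4.

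The label macrophage was checked against marker genes. Adgre1, which encodes the surface protein F4/80 (ENSMUSG00000004730, chromosome 17, 57358691 to 57483527, GRCm38), stood at 630.5, 518, 555 and 569 FPKM with a CV of 7.78%. Csf1r, the receptor for macrophage colony-stimulating factor (ENSMUSG00000024621, chromosome 18, 61105572 to 61132149), stood at 303, 315, 253 and 300.4 FPKM with a CV of 9.76%. Itgam, the integrin chain CD11b (ENSMUSG00000030786, chromosome 7, 128062640 to 128118491), stood at 171, 112, 210 and 190.3 FPKM and was lowest in M_WT_6255. Its level is uncertain, since 66.3% of its 50-base stretches occur in another gene's transcripts. With Lyz2 (ENSMUSG00000069516, chromosome 10, 117277331 to 117282321) and Fn1 (ENSMUSG00000026193, chromosome 1, 71585520 to 71653200), all 5 markers were above FPKM 100 in every library.

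Of the wider list of macrophage genes, 21 of 22 were expressed, against 40.2% of protein-coding rows, with a median of 212 ± 13.6 FPKM (SD over the 4 libraries). The median over all expressed protein-coding genes was 8.14. The steadiest member was Tyrobp, the signalling adaptor of many myeloid receptors, at 961, 932, 929.9 and 883 FPKM. Its CV of 2.65% was far below the 12.6% that was the median of expressed protein-coding genes. Spi1 had 180.4, 164, 169.5 and 168 FPKM (CV 3.48%). Other members above 100 FPKM were Ctss, Laptm5, Cd68, Mpeg1, Fcer1g, Msr1 and Sirpa. At the low end were Mertk (10.01), Aif1 (6.08) and Fcgr1 (5.18). Cx3cr1, the fractalkine receptor, was at 0.965, 0.756, 1.11 and 1.59 FPKM and was the 1 member that did not reach 1 in all libraries.

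Genes known from the large resident peritoneal macrophage were abundant in these elicited cells: 17 of 18 listed members were expressed, against 40.2% of protein-coding rows, with a median of 168 ± 40.6 FPKM. Serpinb2 led them. Prg4, which encodes the lubricant proteoglycan 4, stood at 1786, 1144, 954 and 667 FPKM. Cd5l, a secreted inhibitor of apoptosis, stood at 794, 816, 1283 and 835 FPKM. Alox15, a lipoxygenase typical of resident peritoneal cells, stood at 956, 900.3, 641 and 718 FPKM. The scavenger receptor gene Marco was at 997, 967, 783 and 126 FPKM, with F_WT_5638 far below the other 3 libraries. Cxcl13, a B cell attractant, showed the same shape at 546, 626, 493 and 136 FPKM. Gata6, the defining factor of resident cells, was lower, at 11.8, 16.5, 11.4 and 10.6 FPKM. The phosphatidylserine receptor Timd4 stood at 87.8 to 254 FPKM and the complement receptor Vsig4 at 121 to 264. Rarb alone was below 1 in all libraries. The summed FPKM of the list was 9122, 7817, 7419 and 4496, lowest in F_WT_5638.

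Genes listed for monocytes and recruited cells were expressed in 13 of 15 cases (40.2% of protein-coding rows) but at a lower median of 21.9 ± 4.26 FPKM. Thbs1 led them, followed by haptoglobin, encoded by Hp, at 412, 159, 81.7 and 161 FPKM with M_WT_5643 highest. Cd44, Gda, Ifitm6 and F13a1 had means of 128, 93.1, 67.5 and 58.7 FPKM. The genes that define inflammatory monocytes were low. Ccr2, the receptor that brings them out of the marrow, was at 5.195, 3.51, 6.37 and 7.72 FPKM, Ly6c2 at 2.74, 5.19, 1.57 and 0.717 and Ly6c1 at or near 0 in all 4. In bulk RNA, fewer cells of a type and less RNA per cell cannot be told apart, so neither set of levels gives a share of cells.

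Markers of other cell types were mostly at or near 0. None of the listed T cell, NK cell, eosinophil, erythroid, mesothelial, endothelial, or epithelial and adipocyte genes was expressed, and the summed FPKM of each of these lists was at most 1.52. Cd8a and Adipoq had no count. Fibroblast genes were likewise low, with 1 of 8 expressed (Pdgfrb, mean 1.75). B cell genes were the exception, with 8 of 12 expressed. Their summed FPKM was 322, 90.8, 101 and 281, higher in M_WT_5643 and F_WT_5638 than in the other 2. The immunoglobulin gene Ighm stood at 125, 32.4, 34.1 and 101 FPKM, Igkc at 118, 27.2, 32.8 and 89.05, and the receptor chain Cd79a at 32.1, 12.8, 12.8 and 36.03. The same 2 libraries were high in each, with no overlap. The plasma cell gene Jchain was under 1 in all 4.

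For neutrophils, 3 of 15 genes were expressed: Csf3r (105, 73.8, 55.2 and 67.02 FPKM), Lcn2 (74.5, 15.8, 7.47 and 8.15) and S100a8 (8.97, 6.07, 6.37 and 3.57). Csf3r and Lcn2 are also made by macrophages. S100a9 was at 4.07, 0.864, 0.408 and 0.899 FPKM, above 1 in M_WT_5643 only, and Il1r2 at 1.71, 0.683, 1.42 and 1.41. The remaining 10 genes were below 1 in every library, Cxcr2 and Retnlg among them. Of these, Ly6g and Mpo, which define mature and immature neutrophils, had no count. The summed FPKM of the list ran from 71.4 to 195, highest in M_WT_5643, and Csf3r and Lcn2 made up most of it in every library. Of mast cell and basophil genes, only Hdc, the histidine decarboxylase also made by macrophages, was expressed, at 117, 54.04, 47.2 and 62.8 FPKM. Hdc made up most of the summed FPKM of that list in every library. The mast cell proteases Cma1, Tpsb2, Mcpt4 and Cpa3 reached 1 only in M_WT_5643. Cma1 stood at 4.58, 0.69, 0.5865 and 0.1175 FPKM and Tpsb2 at 4.02, 0.8345, 0.197 and 0.158. Mcpt4 stood at 2.095, 0.317, 0.0962 and 0.193 FPKM and Cpa3 at 1.465, 0.0991, 0.211 and 0.0563. The single expressed dendritic cell gene was Ccr7 (mean 4.005). Cd209a was at 0.0624, 9.05, 9.69 and 0 FPKM, present in M_WT_6255 and M_WT_6258 and at or near 0 in the other 2. Among platelet genes Pf4 alone was expressed, and the platelet receptor genes Gp9, Gp1ba and Itga2b were below 1 in every library. What part cells of these types have in the results below was not tested, and the values of the B cell and neutrophil lists are repeated where a result moves with them.

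**Figure D2:**
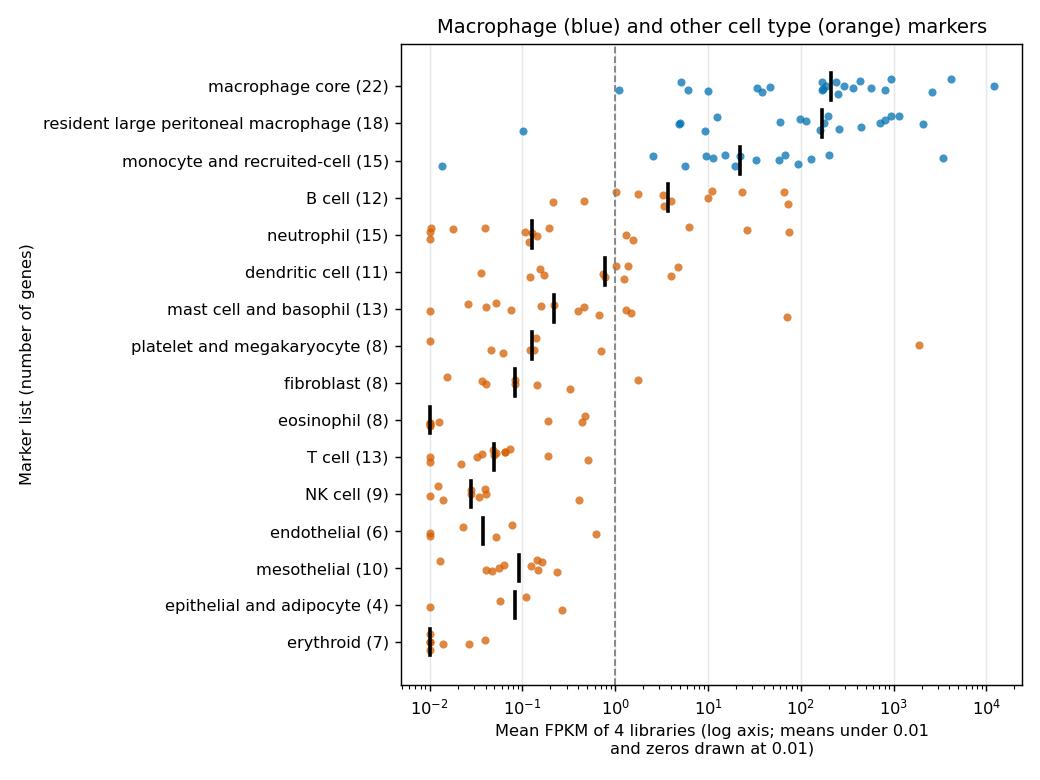
Mean FPKM over the 4 libraries on a log axis, 1 point per gene, for 3 lists of macrophage and monocyte genes (blue) and 13 lists of other cell types (orange). Black bars are medians, the dashed line is FPKM 1, and of the orange lists only the B cell list has its median above that line.

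Transcription factors were assigned by the factor family column of the deposited table. It marks 1451 protein-coding rows, of which 555 were expressed, with a median CV of 12.2%, close to the 12.6% of all expressed protein-coding genes. Cebpb, a factor of myeloid and acute-phase genes, was the most abundant at 396, 458, 360.2 and 410.1 FPKM. Junb, an AP-1 subunit, followed at 362, 334, 346 and 339.5 FPKM and was the steadiest of the 6 highest (CV 2.74%). Ybx1 had a mean of 179.9 FPKM, Spi1 of 170.5 and the stress factor Atf4 of 164. Nfkb2, a subunit of NF-kB, stood at 163, 126, 136 and 125 FPKM. In a chosen list of myeloid factors, 34 of 36 were expressed, with 8 under 10% CV and 1 over 50%. Of all expressed protein-coding genes, 36.5% had a CV under 10% and 2.79% one over 50%. Among further factors of lineage and maturation the order was Cebpa (64.01 FPKM), Irf5 (34.05), Zeb2 (33.7), Klf4 (13.1), Gata6 (12.6), Runx1 (9.03), Irf8 (7.13), Maf (4.21), Bhlhe41 (4.07) and Pparg (1.41). Cebpb and Spi1, given above, lay higher. Whether close means, such as those of Irf5 and Zeb2 or Klf4 and Gata6, differ beyond the spread was not tested. Cebpa was at 34.7, 75.3, 68.7 and 77.3 FPKM, with M_WT_5643 below the other 3.

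Receptors for growth factors and cytokines were expressed in 25 of 31 cases, against 40.2% of protein-coding rows. Their median CV was 13.6%, against 12.6% over all expressed protein-coding genes, and none was over 50%, against 2.79%. Tnfrsf1b, the second receptor for tumour necrosis factor, led at 397, 348, 399 and 194 FPKM, with F_WT_5638 lowest. Csf1r came second. The GM-CSF receptor chains Csf2ra and Csf2rb had means of 262 and 89.7 FPKM, and Csf3r and Tnfrsf1a of 75.1 and 71.3. Of the chains of the type I interferon receptor, Ifnar1 was at 59.3, 52.6, 53.02 and 48.01 FPKM (CV 7.82%) and Ifnar2 at 81.7, 69.6, 68.2 and 50.3 (CV 18.4%). Il1r1, Kit, Flt3, Osmr and Il18r1 were below 1 in every library.

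Of receptors for chemoattractants, 11 of 17 were expressed, against 40.2% of protein-coding rows. The formyl peptide receptors Fpr2 and Fpr1, which read bacterial peptides, led at 271, 202, 162 and 187 and 248, 196, 89.8 and 168 FPKM. The complement receptor gene C5ar1 had 174, 170, 200 and 133 FPKM. Ccrl2, C3ar1 and Ccr1 had means of 115, 48.2 and 33.2 FPKM. Those of neutrophils, eosinophils and T cells were below 1 throughout, namely Cxcr1, Cxcr2, Ccr3 and Cxcr3, as was C5ar2. For Fpr2, 31.5% of 50-base stretches are shared with another gene.

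Microbial sensors were expressed in 31 of 35 cases, against 40.2% of protein-coding rows. The C-type lectin receptors Clec4e (Mincle) and Clec4d led at 1159, 990, 956 and 636 and 796, 720, 741 and 538 FPKM, both lowest in F_WT_5638. Tlr2, the receptor for bacterial lipopeptides, was the most abundant Toll-like receptor at 337, 364, 361 and 402 FPKM and was steady (CV 8.28%). The order of the Toll-like receptors by mean FPKM was Tlr2 (366), Tlr7 (41.3), Tlr13 (31.96), Tlr4 (23.3), Tlr1 (9.15), Tlr8 (8.99), Tlr6 (4.71), Tlr9 (1.92) and Tlr3 (1.52), while Tlr5, Tlr11 and Tlr12 were below 1 everywhere. The ranges over libraries overlapped between Tlr7 and Tlr13, Tlr13 and Tlr4, Tlr1 and Tlr8, and Tlr9 and Tlr3, so their order is not beyond the spread. Nlrp3, Clec7a and the adaptor Myd88 had means of 96.8, 96.3 and 47 FPKM. The RNA sensor gene Ifih1 was among the few variable members at 57.96, 21.4, 42.7 and 13.96 FPKM, and it is itself an interferon-stimulated gene.

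Of 21 integrin and adhesion genes, 20 were expressed, with a median CV of 15.98%, above the 12.6% of all expressed protein-coding genes. Of the 20, 4 had a CV under 10% (36.5% over all such genes) and none over 50% (2.79%). Itgb2, the common chain of the leukocyte integrins, stood at 891, 854, 967 and 791 FPKM (CV 7.61%) and Itgb1 at 553, 534, 483 and 459. Icam1, Cd44 and Itgb7 had means of 132, 128 and 117. Of 22 paired and inhibitory receptors, 21 were expressed, led by Tyrobp, Lilr4b (203), Sirpa (174), Lilrb4a (147), Trem1 (75.4) and Pirb (62.2). Cd300ld, Siglec1 and Sirpb1c had CVs over 50%. Cd300ld and Siglec1, at 8.42, 49.6, 59.2 and 36.5 and 9.94, 45.1, 35.7 and 22.3 FPKM, were both lowest in M_WT_5643.

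Chemokines spanned a wide range of levels. Of the list, 18 of 27 were expressed (40.2% of protein-coding rows), and the whole list ran from Pf4 at 1874 FPKM to Ccl11 with no count. Ccl6, a chemokine of myeloid cells, was second at 566, 698, 1200 and 1374 FPKM. The neutrophil attractants Cxcl2 and Cxcl1 stood at 1048, 733, 832 and 526 and 652, 472, 554 and 248 FPKM, both lowest in F_WT_5638. Ccl9 and Cxcl13 completed the 6 highest with means of 525 and 450.2. Among the others, the monocyte attractants Ccl2 and Ccl7 had the libraries in the same order, at 51.6, 50.9, 192 and 124 and 53.2, 33.5, 166 and 80.4 FPKM, highest in M_WT_6258 and next in F_WT_5638. The interferon-inducible Ccl5 and Cxcl10 followed a different order, at 302, 69.6, 192 and 26.3 and 144, 48.2, 144 and 31.7 FPKM, high in M_WT_5643 and M_WT_6258. Of the 18 expressed chemokines, 7 had a CV over 50%, against 2.79% of all expressed protein-coding genes. Ccl11 and Cx3cl1 were below 1 in every library.

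Cytokines and growth factors were expressed in 31 of 38 cases (40.2% of protein-coding rows), with a median of 10.6 ± 2.13 FPKM. The highest was progranulin, encoded by Grn, a growth factor found in lysosomes, at 522, 590.2, 623 and 394 FPKM. Il1b and Il1a, the 2 interleukin-1 genes, came next at 938, 299.8, 289.6 and 199.9 and 592, 299.5, 351 and 194 FPKM, with M_WT_5643 highest in both. Their natural antagonist Il1rn was at 183, 130.1, 215 and 79.7 FPKM. Tnf was steadier at 159, 116, 162 and 117 FPKM, and Tgfb1 steadier still at 70.98, 77.6, 74.3 and 76.97 (CV 4.899%). After Il1b and Il1a the interleukins were ordered Il6 (64.3 FPKM), Il18 (19.9), Il10 (12.5), Il27 (9.299), Il15 (6.23), Il12b (2.98), Il12a (2.16), Il4 (1.53), Il23a (0.9598), Il33 (0.386) and Il13 (0.00886). Ifng and Il13, which lymphocytes make, were at or near 0, and Il33 and Tnfsf13b were below 1.

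Genes of uptake included some of the most abundant of all. Of scavenger and apoptotic-cell receptors and bridging proteins, 25 of 29 were expressed, with a median of 49.6 ± 4.36 FPKM. The 3 C1q genes led, with C1qc at 725, 1019, 1212 and 584 FPKM in the same order of libraries as C1qa and C1qb. Marco, Olr1 and Cd36, receptors for modified lipoproteins and microbes, had means of 718, 319.8 and 189 FPKM. The engulfment GTPase gene Rac2 was steady, at 129, 123, 124 and 123 FPKM with a CV of 1.64%. Stab1, a receptor for dead cells and hyaluronan, was highest in M_WT_6258 and lowest in M_WT_5643, at 14.1, 62.9, 188 and 45.95 FPKM. The receptor tyrosine kinases of efferocytosis were ordered Axl (10.8), Mertk (10.01) and Tyro3 (0.0426), and Tyro3 was below 1 in all libraries.

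Fc receptors were expressed in 6 of 9 cases. The common chain Fcer1g stood at 234, 202, 236 and 289 FPKM, and Fcgr3 at 162, 157, 161 and 148 with a CV of 3.104%. Fcgrt, Fcgr2b, Fcgr4 and Fcgr1 had means of 101, 43.02, 40.5 and 5.18. Fcer1a, Fcer2a and Fcamr, found on mast cells and B cells, were below 1. Complement genes were expressed in 14 of 21 cases. Properdin, encoded by Cfp, stood at 1271, 952, 1003 and 1205 FPKM beside the C1q genes. C4b, with 34.6% of its stretches shared with another gene, was at 1038, 796, 514 and 365 FPKM. C3, the central component, was at 325, 105, 73.2 and 64.7 FPKM, with M_WT_5643 well above the rest. Serping1, C1s1 and Hc were below 1, and Cfd and Cfi had no count.

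Lysosomal genes were uniformly present: 41 of 43 were expressed, with a median of 63.3 ± 7.999 FPKM and a median CV of 18.4%. Psap, the precursor of the saposins, led at 1145, 1329, 1653 and 1136 FPKM. The cathepsins in the 6 highest were Ctss at 1005, 894, 787 and 578, Ctsd at 647, 722, 849 and 609, Ctsb at 516, 670.3, 831 and 448 and Ctsz at 414, 660.4, 676 and 482 FPKM. Lamp1, the membrane protein of the lysosome, was at 436, 526, 549.6 and 464 FPKM. For Psap, Ctsd, Ctsb, Ctsz and Lamp1 the highest library was M_WT_6258, and for Ctss it was M_WT_5643. Ctse stood apart from the other cathepsins and is described further on. The osteoclast genes Ctsk and Atp6v0d2 were below 1 in all libraries. Palindromic E-boxes with the letters TCACGTGA, searched on both strands in RefSeq promoter windows from 250 bases before to 50 bases after a start (GRCm38.p6), were found for 3 of 32 lysosomal genes that have a window (9.38%), against 1.12% of 27025 genes and 2.52% of expressed genes. A match is a description of the letters only.

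Proteases outside the cell and their inhibitors were expressed in 21 of 26 cases, and the 6 highest were all inhibitors. Serpinb2 and Slpi led, and the 6 also included cystatin C (Cst3, 769, 660, 658 and 566 FPKM), Cstb (159.6, 244, 289.6 and 197) and Timp2 (155, 151, 164 and 135). Timp1 was far less steady than Timp2, at 148, 36.6, 74.03 and 17.5 FPKM. The order of the metalloproteinases was Mmp14 (31.01 FPKM), Mmp13 (24.7), Mmp19 (6.88), Mmp9 (4.001), Mmp12 (1.44), Mmp2 (1.07), Mmp8 (0.108) and Mmp3 (0.0418). The last 2 were below 1 everywhere.

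Matrix genes split by kind, with 11 of 19 expressed. Fn1, Thbs1 and Ecm1 were abundant, Ecm1 at 928, 552, 508 and 310 FPKM. Tgfbi, Anxa2 and Lgals1 followed, with Lgals1, a galectin, at 44.96, 77.4, 170.3 and 175 FPKM and higher in M_WT_6258 and F_WT_5638. Collagens and other fibroblast products were below 1 in every library, namely Col1a1, Col3a1, Col4a1, Col14a1, Sparc, Thbs2, Tnc and Fbn1. Coagulation genes were expressed in 12 of 15 cases. F10 and F5, the genes of clotting factors X and V, stood at 745, 549, 467 and 340.2 and 349, 234, 174 and 271 FPKM. F7 was at 28.99, 102, 150.3 and 31.8 FPKM, with M_WT_6255 and M_WT_6258 above the others. Tissue factor, encoded by F3, was lower and steadier at 9.09, 10.4, 12.6 and 8.48 FPKM, and Tfpi2 was below 1.

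Genes of antigen presentation were expressed almost without exception. Of class II and costimulatory genes, 14 of 15 were expressed. The invariant chain Cd74 stood at 1852, 1219, 1213 and 1055 FPKM, H2-Eb1 at 853, 464, 587 and 253, H2-Ab1 at 765, 489, 481 and 295 and H2-Aa at 574, 354, 388 and 187. In all 4 genes M_WT_5643 was highest and F_WT_5638 lowest, and B cells, whose listed genes were high in both of these libraries, express them too. Cd86 and Icosl had means of 118 and 89.7. Of class I genes, 15 of 15 were expressed. H2-K1, at 1293, 1230, 781 and 398 FPKM, was lowest in F_WT_5638, as B2m was. The chaperones Calr and Pdia3 and the loading factor Tapbp had means of 398, 352 and 105, and H2-T23 of 90.9.

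Markers of both classical and alternative activation were present at once. Of classical activation genes, 15 of 17 were expressed, with a median of 117 ± 48.6 FPKM. Acod1, which makes itaconate, led at 1582, 1106, 938 and 720.5 FPKM. Socs3, a feedback inhibitor of cytokine signals, was at 522, 223, 251 and 129.8 FPKM, and the prostaglandin synthase gene Ptgs2 at 243, 107, 115 and 36.02. Nos2, the inducible nitric oxide synthase, was low at 20.5, 8.35, 6.28 and 3.14 FPKM. Of alternative activation genes, 16 of 18 were expressed, with a median of 16.8 ± 5.68 FPKM. Retnla, a secreted product of interleukin-4 signalling, led at 594, 627, 1169 and 980 FPKM. Arg1, the arginase that competes with Nos2 for arginine, was at 139, 208, 259 and 123 FPKM, above Nos2 in every library. Ccl24, Tgm2 and Stat6 had means of 433, 132 and 45.1. Chil3 was low at 16.4, 8.23, 6.89 and 6.695 FPKM, and Chil4 was below 1. Mrc1 and Mgl2, lectins of this state, were at 11.1, 9.99, 17.4 and 39.04 and 4.25, 5.6, 18.9 and 29.6 FPKM, highest in F_WT_5638.

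Genes of lipid mediators were expressed in 17 of 19 cases. Alox15 led, and Alox5ap, which presents arachidonic acid to 5-lipoxygenase, was steady at 189, 188, 206 and 204 FPKM. Ptges, Ptgs2, Pla2g7 and Ltc4s had means of 129, 125, 96.7 and 84.5. Ptgds had no count. Of genes of lipid efflux under the nuclear receptor LXR, 15 of 16 were expressed. Apoe stood at 918, 949, 922 and 181 FPKM, with F_WT_5638 far below the other 3, while the cholesterol exporter Abca1 was even at 176, 161, 145 and 161 FPKM. Plin2, Nr1h2, Mylip and Lpl had means of 38.5, 30.98, 27.9 and 23.4. Sterol synthesis was the lowest of the metabolic lists, with 11 of 15 expressed and a median of 1.79 ± 0.193 FPKM. It was led by Mvd (31.6), Insig1 (25.1), Srebf2 (16.4) and Hmgcs1 (8.84), and Dhcr7, Fdps and Lss were below 1. The level of Fdps is uncertain, since 26.2% of its 50-base stretches occur in other transcripts.

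In glycolysis 19 of 20 genes were expressed, led by Ldha (206 FPKM), Aldoa (160.1), Pkm (138), Eno1 (105), Pgk1 (74.02) and Gpi1 (45.5). Gapdh, usually an abundant gene, was listed at only 21.9, 3.17, 17.2 and 18.4 FPKM, and 24.7% of its 50-base stretches occur in other transcripts. For Pgk1, Eno1 and Pkm the shared parts were 53.9%, 26.0% and 25.8%, so their levels and the order above are uncertain. The glucose transporter gene Slc2a3 was below 1. All 29 nuclear genes of oxidative phosphorylation were expressed, with a median of 31.6 ± 1.73 FPKM and a median CV of 12.1%. Cox4i1, a subunit of cytochrome oxidase, was the steadiest of the 6 highest at 158, 166, 166 and 162 FPKM. Fatty acid oxidation genes were all expressed at a lower median of 8.84 ± 0.507 FPKM, led by Acadl at 23.2, 54.4, 52.9 and 32.6 and Etfa at 25.2, 31.5, 33.3 and 34.2.

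The 13 protein genes of the mitochondrial genome differed widely in listed level although they are transcribed as joint precursors. The levels were 3409 FPKM for mt-Co1, 1667 for mt-Nd1 and 1439 for mt-Cytb, and from 569 to 790.2 for mt-Nd4, mt-Nd5, mt-Nd6 and mt-Nd2. At the low end were mt-Co2 (32.9), mt-Nd3 (24.6), mt-Atp6 (21.8), mt-Co3 (21.1) and mt-Nd4l (9.401), for which 98.0% to 100% of 50-base stretches occur in another gene's transcripts. mt-Atp8 was the lowest at 2.16 with none shared. The part of shared sequence in these levels was not tested.

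Iron and heme genes were expressed in 17 of 21 cases. The ferritin chains Fth1 and Ftl1 stood at 5870, 6403, 5442 and 4675 and 907, 1297, 1398 and 1320 FPKM. The level of Ftl1 is uncertain, since 50.9% of its 50-base stretches occur in other transcripts. Hmox1, which degrades heme, was at 135, 312, 366 and 311 FPKM, with M_WT_5643 lowest. Slc11a1, the metal transporter of the phagosome, had a mean of 95.9, Blvrb of 42.4 and Lcn2 of 26.5. The iron exporter gene Slc40a1 and Hamp and Hpx were below 1 in all libraries. Of oxidase and antioxidant genes, 21 of 23 were expressed. The oxidase subunits Cybb and Cyba were even, at 825, 771, 709 and 708 and 538, 592, 585 and 565 FPKM. Gpx1, Txn1, Prdx5 and Ncf1 had means of 804, 403, 378 and 166. Sod3 was below 1.

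Immediate early genes, which rise within minutes of a stimulus or of handling, were expressed in 25 of 26 cases. Nfkbia, the NF-kB inhibitor, stood at 632, 398, 461 and 312 FPKM, and Junb, Ier3, Zfp36, Tnfaip3 and Klf2 at means of 345, 322, 197, 88.5 and 80.7. The classical members were low, with Fos at 4.91 and Egr1 at 5.75 FPKM, and Fosb was below 1. All 13 heat shock genes were expressed, Hsp90ab1 highest at 327, 333, 363 and 372 FPKM, followed by Hspa8 (196), Hsp90aa1 (74), Hspd1 (48.5), Hspe1 (32.5) and Bag3 (19.3). The inducible Hspa1a and Hspa1b were listed at 2.35 and 6.41, but 60.4% and 62.3% of their 50-base stretches occur in other transcripts. For Hspa8, Hsp90aa1 and Hspd1 the shared parts were 38.6%, 47.5% and 39.7%, so the levels of these heat shock genes are uncertain. All 20 genes of the unfolded protein and integrated stress responses were expressed, among them the chaperones Hspa5 (372, 299.7, 309.8 and 206 FPKM), Hsp90b1 (204, 208, 217 and 209), Pdia6 (182) and Canx (126).

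Among structural genes, all 25 of 25 genes listed for the actin cytoskeleton were expressed, with a median of 163 ± 5.84 FPKM and a median CV of 11.6%. A CV under 10% was found for 9 of the 25, and for 36.5% of all expressed protein-coding genes. Tmsb4x led, followed by Actb (683), Cotl1 (593), Cfl1 (417), Actg1 (372) and Vim (284). All 78 cytosolic ribosomal protein genes were expressed, with a median of 234 ± 24.2 FPKM. Of these, 40 had a CV under 10% and 4 one over 50%, against 36.5% and 2.79% of all expressed protein-coding genes. Rplp1, Rpl36, Rplp0, Rps29, Fau and Rps15 led, and the listed levels went down to Rps10 at 1.38 FPKM and Rpl24 at 2.79. Many of their genes have near-identical pseudogene copies. Rpl34 was listed at 3.63, 4.08, 85.2 and 75.5 FPKM, while its copy Rpl34-ps1 on chromosome 6 was listed at 1390, 1061, 641 and 612 FPKM, so levels of single ribosomal genes are uncertain.

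Across all 8864 expressed protein-coding genes the median CV was 12.6%, with quartiles of 8.03% and 20.3%. Counting error alone would give a median of 3.59%, and for 94.9% of genes the CV was above the value expected from counting error. A CV estimated from few libraries can exceed that value by counting error alone, so 94.9% is not the share of genes with added spread. Whether animal, collection or library preparation accounts for the remaining spread was not tested. A CV under 10% was found for 3237 genes (36.5%) and one over 50% for 247 (2.79%). The spread depended little on level from FPKM 1 to 1000, with median CVs of 13.8%, 11.0% and 12.3% in successive decades. It was wider in the 28 genes at 1000 or more, at 21.7%.

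The 10 steadiest genes at a mean FPKM of at least 5 were Gtf2f1, Pno1, Stx7, Clint1, Imp3, Eif4enif1, Clk3, Emg1, Yipf3 and Wac, with CVs from 0.764% to 1.26%. Gtf2f1, a subunit of the general transcription factor TFIIF, was at 32.5, 32.3, 32.4 and 31.4 FPKM. Pno1, Imp3 and Emg1 act in ribosome assembly, and Stx7, Clint1 and Yipf3 in vesicle traffic. Pno1 was at 17.8, 17.4, 17.8 and 17.2 FPKM and Stx7, a late endosomal fusion protein, at 26.5, 26.6, 27.1 and 26.2. None of the 10 belonged to the lists of macrophage functions. These lists held only 742 expressed genes against 9872 expressed rows, so an absence among 10 genes says little. Among the immune genes named above, Rac2, Tyrobp, Junb, Fcgr3 and Spi1 had CVs from 1.64% to 3.48%.

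**Figure D3:**
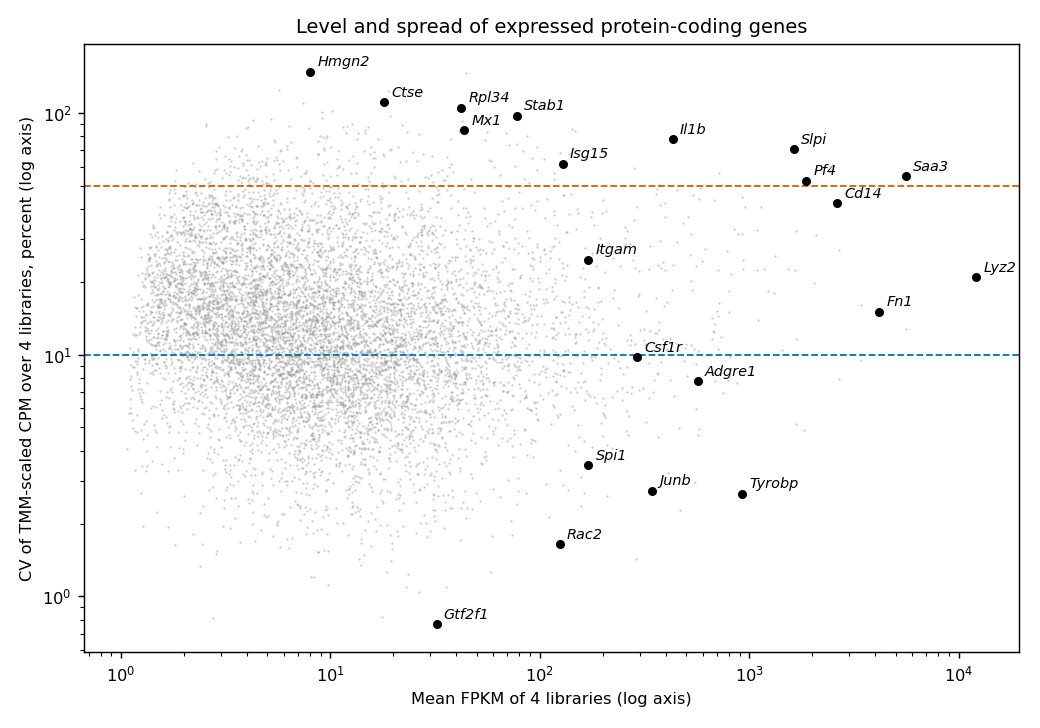
Mean FPKM against the CV of TMM-scaled CPM for 8864 expressed protein-coding genes, both on log axes, with named genes in black. The dashed lines mark CVs of 10% and 50%; 3237 genes lie below the lower line and 247 above the upper one.

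Among the 247 genes with a CV over 50%, 130 were highest in M_WT_5643, 65 in F_WT_5638, 40 in M_WT_6258 and 12 in M_WT_6255, and 107 were lowest in F_WT_5638. The count was 204 without M_WT_5643, 211 without F_WT_5638, 361 without M_WT_6258 and 367 without M_WT_6255. Over all expressed protein-coding genes 30.4% were highest in M_WT_5643 and 25.9% lowest in F_WT_5638. The most variable genes by the same ranking (mean FPKM of at least 5) were Hmgn2, Orm1, Adm, Lcn2, Ctse, Rnd1, Orm2, Rpl34, Gdf15, Prtn3, Stab1, Olfr1033, Rhou, Edn1 and Lyve1, with CVs from 93.1% to 148%. Many of them were high in M_WT_5643 alone. Adm, the gene of the vasodilator adrenomedullin, stood at 53.97, 9.38, 7.93 and 4.32 FPKM. The acute-phase genes Orm1 and Lcn2 stood at 16.4, 2.72, 1.65 and 2.09 and 74.5, 15.8, 7.47 and 8.15 FPKM. Rnd1, Rhou, Edn1 and Olfr1033 were also highest in M_WT_5643, at 48.3, 7.91, 12.7 and 4.201, 22.1, 5.62, 5.47 and 3.27, 12.6, 1.898, 4.06 and 2.35 and 46.6, 16.2, 7.76 and 6.17 FPKM. The summed neutrophil list, which holds Lcn2, was also highest in that library. Hmgn2, a nucleosome-binding protein, was at 1.49, 2.49, 2.298 and 25.7 FPKM, high in F_WT_5638 alone, and 25.4% of its 50-base stretches are shared. Akr1c18, an aldo-keto reductase, was the other gene more than 4-fold above every other library in F_WT_5638, at 2.25, 2.201, 2.29 and 9.02 FPKM.

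A second kind of variable gene divided the libraries 2 against 2 with a gap of more than 3-fold. There were 18 such genes with a formal symbol, and 9 of them were high in M_WT_5643 and F_WT_5638. Ctse, the aspartic protease cathepsin E, was at 40.9, 1.17, 1.21 and 28.8 FPKM. Slpi was at 2610, 600.2, 664 and 2645 FPKM. Pla1a, Fcrl5, Mzb1, Prtn3, Orm2, Rnase2a and Rps3a1 had the same 2 high libraries. Fcrl5 (5.44, 1.04, 1.21 and 6.61 FPKM) and Mzb1 (9.12, 2.16, 1.59 and 8.87) are B cell genes, and the B cell list was high in the same libraries, with summed FPKM of 322 and 281 against 90.8 and 101. Slpi and Ctse are not among the listed B cell genes, and the part of B cells in their levels was not tested. Gdf15, a stress cytokine, showed the opposite pattern at 1.47, 15.8, 21.9 and 1.48 FPKM, together with Stfa3, F7 and Hgsnat. Hgsnat, a lysosomal acetyltransferase, was at 14.9, 112, 76.9 and 20.9 FPKM. Rpl34, Hmga1b, Mgl2 and Rcn3 were high in M_WT_6258 and F_WT_5638, and Zfp990 in M_WT_5643 and M_WT_6255. Hmga1b and Rps3a1 share 88.97% and 71.01% of their 50-base stretches with other genes. These 18 genes were chosen for this shape, so their levels are a description.

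The lists were also followed as wholes. For each list, the mean of log2(CPM + 1) over its expressed members was taken in each library, and the highest minus the lowest of the 4 means was its spread. Over 38 lists of functions the median spread was 0.29 on the log2 scale, and over all expressed protein-coding genes the spread of the library means was 0.03. The TMM factors keep the latter value near 0 and it averages 8864 genes, so it is no yardstick for lists of few genes. The spread was under 0.5 for 27 lists. Being the highest minus the lowest of 4 means, it rested on 1 library in many of them, and leaving out 1 library narrowed it by more than 1.5 times for 33 of the 38. The narrowest were iron and heme (0.11, and 0.07 without M_WT_5643), integrins and adhesion (0.12), transcription factors (0.13, and 0.02 without M_WT_6258), sterol synthesis (0.14) and lipid efflux (0.15, and 0.07 without M_WT_6258 or 0.09 without F_WT_5638). The macrophage list itself had a spread of 0.23, and 0.10 without M_WT_5643. The lysosome list had one of 0.25, and 0.15 without F_WT_5638. At the wide end, 3 lists had a spread of 1 or more: interferon-stimulated genes (2.20), the cell cycle (1.46) and classical activation (1.28). The next were chemokines (0.94, and 0.46 without M_WT_6258) and the resident macrophage list (0.84, and 0.50 without F_WT_5638).

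**Figure D4:**
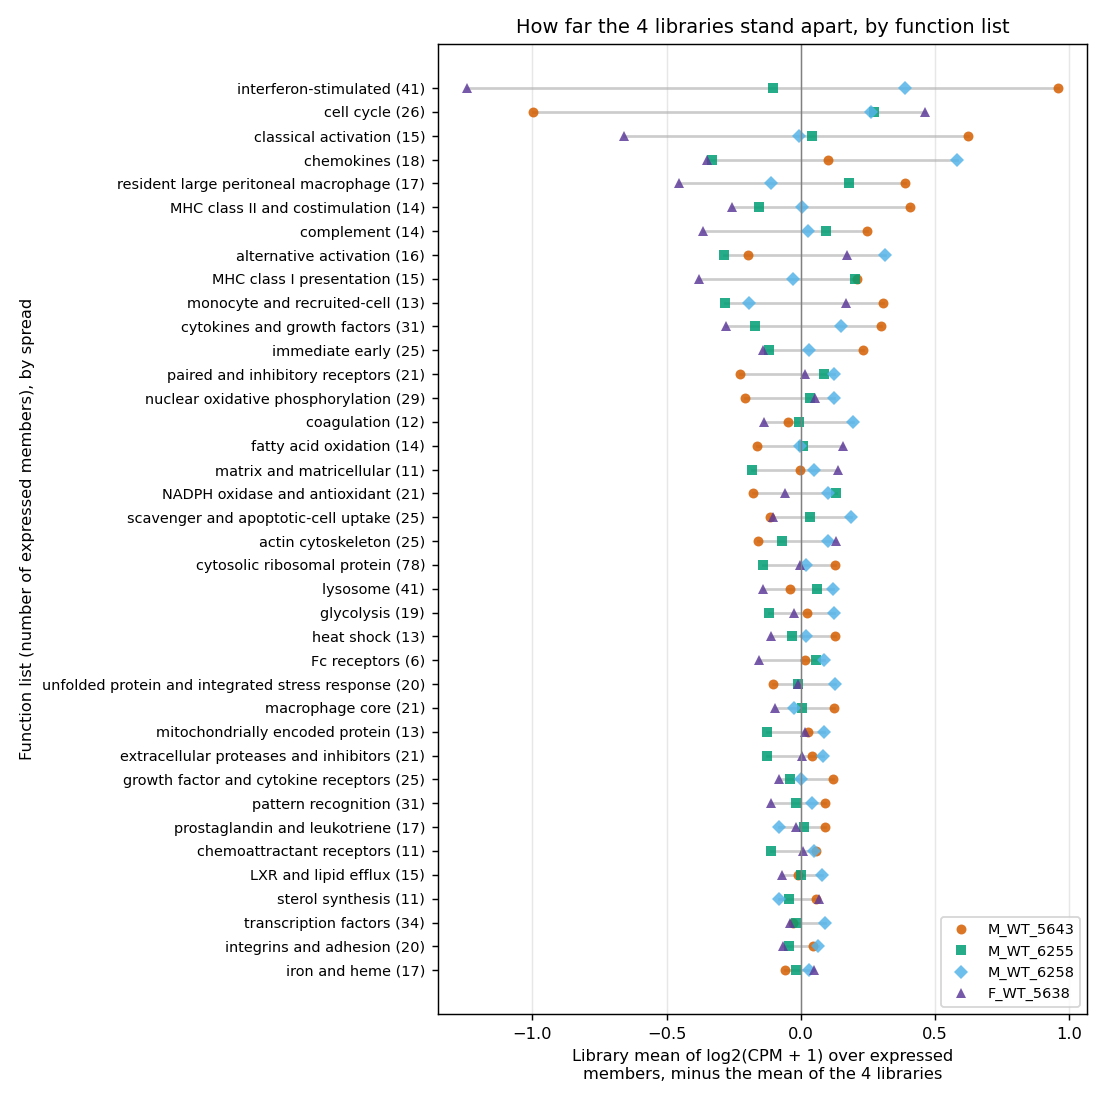
Library means of log2(CPM + 1) over expressed list members, minus the mean of the 4 libraries, for 38 function lists ordered by spread. Each point is 1 library; the widest list is the interferon-stimulated one, with M_WT_5643 at the high end and F_WT_5638 at the low end, and in the second widest, the cell cycle list, M_WT_5643 lies below the other 3.

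Interferon-stimulated genes encode antiviral proteins that are switched on through the receptors for type I interferon and factors that include STAT2 and IRF9, which bind a repeated GAAA element in promoters. Nearly all were expressed in these elicited macrophages (41 of 42), and of the 38 lists this one differed most between libraries. The library means of log2(CPM + 1) were 7.23, 6.17, 6.66 and 5.03, and the median FPKM was 39.3, 15.8, 23.4 and 7.44. Of its 41 expressed members, 38 were highest in M_WT_5643 and 40 lowest in F_WT_5638, and M_WT_6258 mostly lay above M_WT_6255. A CV over 50% was found for 30 of them, against 2.79% of expressed protein-coding genes, and none had one under 10%.

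The most abundant member was Ifitm3, a membrane protein that blocks viral entry, at 1294, 1214, 1110 and 731 FPKM, and it was one of the steadier ones (CV 22.3%). Ifi27l2a at 246, 613, 421 and 206 and Bst2, the virus-tethering protein tetherin, at 85, 165, 125 and 56.4 FPKM were the 2 members highest in M_WT_6255. Isg15, a ubiquitin-like modifier, was at 224, 101, 155 and 34.8 FPKM. Oasl1, which limits translation of Irf7, was at 109.8, 64.4, 115 and 15.3, the 1 member highest in M_WT_6258, and Parp14 at 108, 51.2, 68.1 and 30.8. Rsad2, Ifit1 and Mx1, all antiviral, had the libraries in one order, falling from M_WT_5643 through M_WT_6258 and M_WT_6255 to F_WT_5638. Rsad2 (viperin) was at 97.6, 39.3, 77.9 and 15.03 FPKM, Ifit1 at 106, 29.3, 70.98 and 11.7 and Mx1 at 92.9, 20.01, 51.95 and 9.83. The genes of signalling factors included Irf7 at 53.7, 40.2, 42.7 and 7.44 FPKM, Stat2 at 35.1, 13.3, 16.3 and 7.18 and Irf9 at 19.9, 11.8, 15.2 and 7.45, and Stat2 was the least steady of these, with a CV of 66.2%. The guanylate-binding genes Gbp2 and Gbp3 were steadier, at 60.02, 53.1, 46.6 and 34.2 and 68.3, 48.01, 48.6 and 33.4 FPKM. Ifit3b was the 1 member that did not reach 1 in every library. Ifnb1, the gene of interferon beta, was below 1 in all 4, at 0.132, 0.401, 0.497 and 0.171 FPKM. Such levels rest on few reads, so the order of libraries for Ifnb1 cannot be read. Without F_WT_5638 the spread of the list was 1.05, and without M_WT_5643 it was 1.64. Total counts of the 2 libraries at its ends were 21869905 in M_WT_5643 and 21883619 in F_WT_5638, and the part of depth in the spread was not tested. The summed FPKM of the neutrophil list was 195, 97.9, 71.4 and 82.1 and that of the mast cell list 131, 56.8, 49.2 and 63.9. Both sums were highest in M_WT_5643 and lowest in M_WT_6258. Csf3r and Lcn2 made up most of the neutrophil sum and Hdc most of the mast cell sum, and macrophages also make these genes. The neutrophil gene S100a9 and the mast cell proteases Cma1, Tpsb2, Mcpt4 and Cpa3 were also highest in M_WT_5643. The list members Ltf, Mmp8, Elane, Retnlg and Gata2, near 0, were highest in other libraries. The part of neutrophils and mast cells in the interferon-stimulated levels was not tested.

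Promoters of these genes were read from RefSeq (GRCm38.p6), as windows from 250 bases before to 50 bases after a start. A window was given for 30 of the 42 genes. The core of the interferon-stimulated response element was searched as GAAA, any 2 bases and GAAA again on either strand (so TTTC, any 2 bases and TTTC on the other). It was found in 20 of the 30 (66.7%), against 3.99% of 27025 genes with a window and 4.04% of expressed protein-coding genes. In the other lists searched it was found in 2 of 13 macrophage genes (15.4%), 2 of 32 lysosomal genes (6.25%) and 0 of 23 cell cycle genes. The following stretches of 100 bases upstream of a start, 5′ to 3′ on the gene's strand, are shown because they carry the match in members with wide and with narrow spread. Capitals mark the matched letters, and where 2 matches overlap they run together.
Isg15, chr4:156200830-156200929, minus strand: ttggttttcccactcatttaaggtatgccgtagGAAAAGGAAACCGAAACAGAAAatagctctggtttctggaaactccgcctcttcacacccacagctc
Bst2, chr8:71537542-71537641, minus strand: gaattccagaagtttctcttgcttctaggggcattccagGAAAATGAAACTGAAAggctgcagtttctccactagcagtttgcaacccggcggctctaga
Rsad2, chr12:26456518-26456617, minus strand: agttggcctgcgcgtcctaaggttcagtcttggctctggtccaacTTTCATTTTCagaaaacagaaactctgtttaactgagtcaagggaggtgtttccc
Ifit1, chr19:34640759-34640858, plus strand: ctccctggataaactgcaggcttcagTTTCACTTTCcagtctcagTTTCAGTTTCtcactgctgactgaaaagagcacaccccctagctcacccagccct
Gbp2, chr3:142620559-142620658, plus strand: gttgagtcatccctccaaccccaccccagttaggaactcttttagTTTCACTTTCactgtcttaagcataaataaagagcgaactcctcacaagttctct
Oas1a, chr5:120907526-120907625, minus strand: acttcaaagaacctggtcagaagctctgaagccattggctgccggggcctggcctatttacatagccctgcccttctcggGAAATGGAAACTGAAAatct
Isg15 held 3 overlapping matches in its window, Bst2, Ifit1 and Oas1a 2 each, and Rsad2 and Gbp2 1 each. The CVs of these genes were 61.7%, 44.1%, 77.4%, 29.4%, 64.2% and 21.9% in that order, so the number of matches did not order the spread. For Oas1a, 57.6% of 50-base stretches are shared with other genes.

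The letters were also set against spread over all expressed protein-coding genes with a window. Of 287 genes with a match, 30 (10.5%) had a CV over 50%, and of 6809 without one 147 (2.16%) did. The median CV was 14.9% with a match and 12.4% without. Members of the interferon-stimulated list are among the 287. Without the list's members, an alternative chosen after seeing the data, 18 of 268 genes with a match (6.72%) and 138 of 6799 without one (2.03%) had a CV over 50%, with median CVs of 14.0% and 12.35%. A match says only that these letters lie in the window.

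The cell cycle list was set apart by 1 library. All 26 genes were expressed, with a median of 12.2 ± 4.62 FPKM, and all 26 were lowest in M_WT_5643. Over all expressed protein-coding genes, 35.8% were lowest in that library. The library means of log2(CPM + 1) were 4.57, 5.84, 5.83 and 6.03. Pcna, the sliding clamp of replication, was at 36.7, 64.1, 72.9 and 69.2 FPKM. Mki67, the gene of the proliferation antigen Ki-67, was at 40.96, 50.4, 46.2 and 51.3 and differed least. Ccnb2, a mitotic cyclin, was at 11.8, 31.2, 32.1 and 31.8 FPKM, and Top2a, which untangles replicated DNA, at 10.4, 24.7, 23.4 and 29.4. The replication helicase gene Mcm3 was at 10.9, 19.2, 19.98 and 24.4 FPKM and Mcm6 at 3.45, 15.3, 18.7 and 16.6, and Ube2c had a mean of 18.2. The other 3 libraries were close together, and without M_WT_5643 the spread of the list was 0.21. The neutrophil and mast cell sums given above, which Csf3r, Lcn2 and Hdc made up for the most part, were highest in the library where these genes were lowest. S100a9 and the proteases Cma1, Tpsb2, Mcpt4 and Cpa3 were also highest there, and some members near 0 were highest elsewhere. The part of neutrophils and mast cells was not tested. Transcripts of dividing cells were measured in each of the 4 libraries, and the share of dividing cells cannot be read from them.

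**Figure D5:**
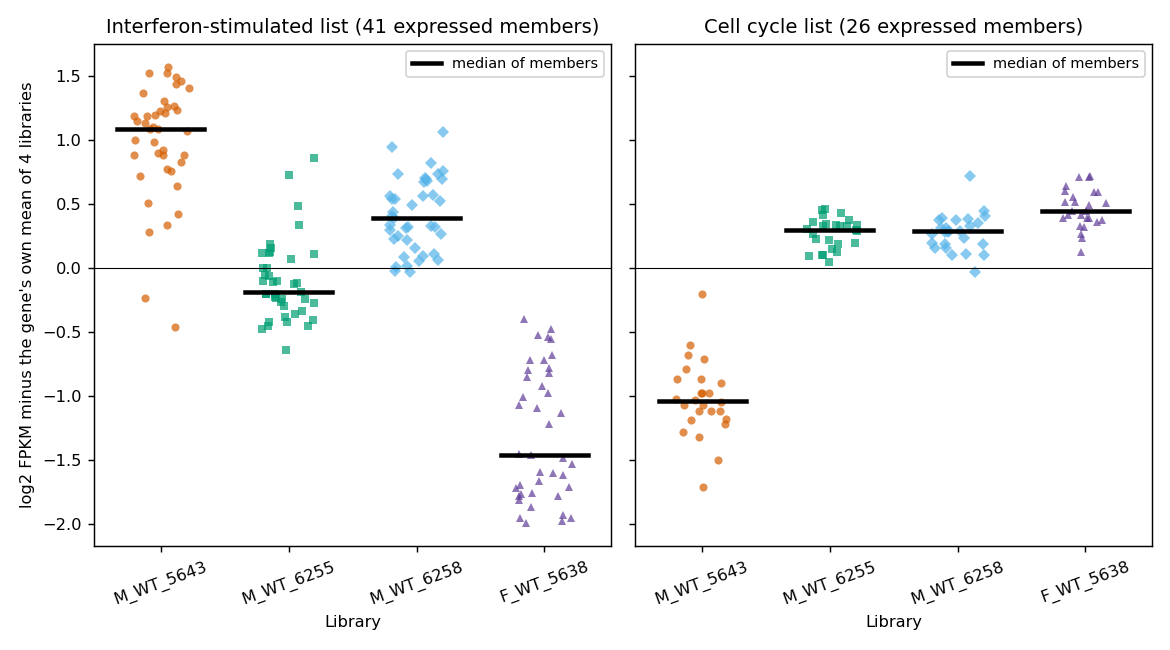
Each point is 1 expressed member of the interferon-stimulated list (left, 41 genes) or the cell cycle list (right, 26 genes), as log2 FPKM minus the gene's own mean of the 4 libraries, by library. Black bars are medians over members; on the left F_WT_5638 lies lowest and M_WT_5643 highest, and on the right all points of M_WT_5643 lie below 0.

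The third wide list, classical activation, had library means of 8.53, 7.95, 7.90 and 7.25, with M_WT_5643 highest and F_WT_5638 lowest, the same ends as the interferon-stimulated list. Its spread was 0.69 without M_WT_5643 and 0.63 without F_WT_5638. Its members with a CV over 50% were Marco, Il1b, Socs3, Ptgs2, Il6 and Nos2. Il6, a cytokine of the acute phase, was at 111, 62.6, 60.9 and 23.1 FPKM. Tnf, Irf5 and Fpr2 in the same list had CVs of 17.4%, 5.26% and 22.02%. In the resident macrophage list F_WT_5638 was again lowest, with means of 8.93, 8.72, 8.43 and 8.09. The chemokine list had M_WT_6258 highest, with means of 7.83, 7.40, 8.31 and 7.38. The summed FPKM of the neutrophil list, 195, 97.9, 71.4 and 82.1, and of the mast cell list, 131, 56.8, 49.2 and 63.9, was highest in M_WT_5643, as the classical activation list was. Csf3r and Lcn2 made up most of the neutrophil sum and Hdc most of the mast cell sum, and macrophages also make these genes. The B cell list was high in both M_WT_5643 and F_WT_5638. The part of these cell types in the levels of the classical activation list was not tested.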

How the data were processed

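RNA of thioglycollate-elicited peritoneal macrophages was sequenced on libraries made with the NEBNext Ultra kit, per the labels' protocols. The authors deposited whole-number read counts per gene, not normalized, and FPKM values per gene, and both tables were used for the 4 WT libraries. Per the submitters' processing notes the authors used featureCounts 1.5.0-p3, HISAT2 2.0.5 and DESeq2 1.16.1 on the build GRCm38 (mm10), and the step each tool served is not stated there. Which annotation release was counted, with what strand setting and with what handling of reads matching several places, is not given in the sources used here, so antisense and overlapping genes, and genes with near-identical copies, are uncertain. No deposited column lacked a sample (0 columns). The authors' comparison tables of knockout and WT were not used.

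Counts were scaled with TMM factors of the 4 libraries (edgeR 4.0.16, R 4.3.3), and means, SDs, CVs and list summaries were computed with Python 3.11.15, pandas 2.3.3 and numpy 2.4.6. FPKM was summarised as deposited. The CV calculation was tested on simulated data. A list's mean level is the mean of log2(CPM + 1) over expressed members, and a list's median FPKM covers all members. For 982 genes of the lists and rankings, every stretch of 50 bases in the transcripts was looked up in the transcripts of all other genes. For 32 of them over 50% was shared, and for 176 over 10%. Levels of these genes are uncertain, also where no share is printed beside them. Promoter windows are those of RefSeq on GRCm38.p6.

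Named genes are the 5 markers, the 20 highest by FPKM, up to 6 of the highest members of each list, members below 1 in every library, the 10 steadiest and 15 most variable genes at a mean FPKM of at least 5, genes more than 4-fold above all other libraries in 1 library, and members given as the order of a family. Other list members and the genes that divided the libraries 2 against 2 were chosen after their values were seen. Some list members are not reported here by name. The gene lists were chosen with earlier results of these data known. Alternatives were other scalings, pseudocounts and level filters, and leaving out each library in turn. With 1 group there was no comparison between groups and no p-value, and Dixon's outlier criterion was applied to the named genes, list means and library measures. The number of libraries limits the precision of every SD.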

Additional observations from a re-analysis of the deposited data

Results flagged for a closer look

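For each named gene and each list, the gap of the highest or lowest library to the nearest of the others was divided by the range of the 4 libraries and flagged where this exceeded Dixon's critical value for 4 samples. Chance flags about 1 in 20 groups, and 39 of 397 named genes (9.82%) were flagged, some of them named for their variability. Of 46 list means and library measures, the cell cycle list was flagged with M_WT_5643 low, at a gap of 0.858 of the range. M_WT_5643 lay high for 19 genes, with the gap as a fraction of the range of 0.897 for Adm, 0.844 for C3, 0.869 for Cd14, 0.842 for Chil3, 0.926 for Clint1, 0.87 for Cma1, 0.891 for Cpa3, 0.832 for Ctsk, 0.898 for Fau, 0.864 for Il1b, 0.849 for Jchain, 0.873 for Lcn2, 0.888 for Mcpt4, 0.844 for Mertk, 0.878 for Mmp14, 0.839 for Mylip, 0.925 for Orm1, 0.875 for Rhou and 0.856 for Rps10. M_WT_5643 lay low for 2 genes, with the gap as a fraction of the range of 0.959 for Ccnb2 and 0.843 for mt-Nd4l. F_WT_5638 lay high for 8 genes, with the gap as a fraction of the range of 0.897 for Actg1, 0.99 for Akr1c18, 0.958 for Hmgn2, 0.841 for Icam1, 1 for Il13, 1 for Retnlg, 0.854 for Tfpi2 and 1 for Tlr12. F_WT_5638 lay low for 3 genes, with the gap as a fraction of the range of 0.942 for Apoe, 0.899 for Ier3 and 0.855 for Txn1. M_WT_6258 lay high for 5 genes, with the gap as a fraction of the range of 0.887 for Cd44, 0.881 for Cd5l, 1 for Ifng, 0.873 for Mmp12 and 0.928 for mt-Atp8. M_WT_6255 lay high for 2 genes, with the gap as a fraction of the range of 1 for Chil4 and 0.831 for Gata6. Chil4, Ifng, Il13, Retnlg and Tlr12 had counts in 1 library only and were below FPKM 1 there, and Jchain, Ctsk and Tfpi2 were below 1 in all 4.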

How the results depend on the processing

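Of 357 values recomputed under alternatives, 318 stayed and 39 moved. Counts of genes moved where they changed by more than 1.5 times, and other values where they changed by more than 1 SD between libraries (for the median CV, between the values with 1 library left out). Over all 9872 expressed rows the median CV was 13.4%. It was 21.6% with no FPKM filter, 10.9% at an FPKM of at least 10, and between 10.5% (without M_WT_5643) and 14.2% with 1 library left out. The level filter also set the counts, with 1553 steady genes at an FPKM of at least 10, and with 1596 variable genes under no filter and 56 at an FPKM of at least 10. With 1 library left out, the spread of the interferon-stimulated list lay between 1.05 (without F_WT_5638) and 2.20, and that of the cell cycle list, examined after seeing the data, between 0.21 (without M_WT_5643) and 1.46. Leaving libraries out of the other lists' spreads was also chosen after seeing the data.

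List medians stayed the same with a pseudocount of 0.1. Leaving out 1 library moved the medians of transcription factors (32.4 to 34.3 FPKM), scavenger receptors (41.0 to 49.8), Fc receptors (32.1 to 43.4), glycolysis (30.6 to 33.5) and iron and heme (11.8 to 13.1). Restricting lists to expressed members leaves fewer genes and raised 25 medians, to 240.3 FPKM for macrophage genes, 33.2 for monocyte genes, 32.7 for cytokine receptors, 33.2 for chemoattractant receptors, 16.4 for pattern recognition, 208 for chemokines, 13.6 for cytokines, 67.0 for scavenger receptors, 65.9 for Fc receptors, 155 for complement, 117 for matrix, 49.9 for class II, 6.58 for sterol synthesis, 17.4 for lipid efflux, 44.9 for lipid mediators, 22.4 for iron and heme, 93.0 for oxidases, 67.8 for coagulation and 47.2 for integrins. For other cell types they became 26.5 (neutrophil), 10.6 (B cell), 70.3 (mast cell), 4.005 (dendritic cell), 1874 (platelet) and 1.75 (fibroblast). No paired analysis was possible because a single group was described. Genes near FPKM 1 rest on few reads, and depth limits what can be said of genes with 0 counts.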
